A study of Mus musculus with 27 samples.

Results

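The miR-379/miR-410 cluster is a row of microRNA (miRNA) genes in the imprinted Dlk1-Dio3 region of mouse chromosome 12, and the data below concern its first segment, from miR-379 to miR-300. Members were chosen by name alone: every mature miRNA, of either arm, from the 20 precursors miR-379, miR-411, miR-299a, miR-299b, miR-380, miR-323, miR-758, miR-329, miR-494, miR-679, miR-1193, miR-666, miR-543, miR-495, miR-667, miR-376a, miR-376b, miR-376c, miR-654 and miR-300. All 20 precursors were found, with 38 mature members of the 844 miRNAs listed in the series. Small RNA was sequenced from 27 libraries of C57BL/6 mice to profile miRNAs of the suprachiasmatic nucleus (SCN), the hypothalamic nucleus that holds the central circadian clock. Tissue came from SCN, hypothalamus and cortex, with 2 libraries each. An SCN time course had 1 library every 4 h from Zeitgeber time (ZT) 2 to ZT42, 11 in all. Neurons of the SCN of the subtypes AVP (marked by the peptide arginine vasopressin), VIP (vasoactive intestinal peptide) and CCK (cholecystokinin) had 2 libraries each. SCN at circadian time (CT) 18 came as CTRL and LP, again with 2 libraries each. The labels do not spell out LP, although the series text speaks of light-response miRNAs. They name no other strain, allele or age, do not say how the neuron subtypes were collected, and do not say that replicates were separate animals, so the p-values below measure the spread between these libraries, which may be technical.

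The miRNAs of the Dlk1-Dio3 region are expressed from the maternal chromosome and are abundant in brain and placenta. A long transcript is cut into hairpins, each hairpin yields a 5p and a 3p arm, and the arm loaded into Argonaute pairs with messenger RNAs mainly through its seed. Members of the cluster are known for roles in dendrite growth and synaptic scaling: miR-329 was described together with miR-134 and miR-381 as an activity-dependent regulator of dendrites, and miR-495 as a repressor of the neurotrophin gene Bdnf. Primary transcripts of the miR-376 family, miR-379 and miR-411 are known substrates of A-to-I RNA editing in the brain.

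In the GENCODE M21 annotation of GRCm38 the 20 precursors span chr12:109709060-109724391, a stretch of 15.3 kb. They lie on the plus strand except miR-299b, which is annotated opposite miR-299a. No precursor overlaps a GENCODE gene other than those of miRNAs: the end of the long noncoding RNA gene Rian lies 47.3 kb before the first precursor, and the start of Mirg lies 5.4 kb after the last. RefSeq (GRCm38.p6) gave a mature sequence for 37 of the 38 members, with lengths of 18 to 25 bases. The sequence of miR-376c-3p was not found there. The 37 sequences hold 33 different seeds, and 4 seeds are shared by a pair of members.

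The pairs that share a seed are shown first, because the seed is the main part of a miRNA that pairs with targets (RefSeq sequences, 5′ to 3′, with the seed, bases 2 to 8, in capitals).
miR-379-3p: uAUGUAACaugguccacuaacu
miR-411-3p: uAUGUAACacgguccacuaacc
miR-379-5p: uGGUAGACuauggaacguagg
miR-1193-5p: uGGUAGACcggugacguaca
miR-376b-5p: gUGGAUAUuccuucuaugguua
miR-376c-5p: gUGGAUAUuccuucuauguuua
miR-299a-3p: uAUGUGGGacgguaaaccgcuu
miR-299b-3p: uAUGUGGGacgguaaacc
Both arms of miR-299b are contained in those of miR-299a without a mismatch, miR-376b-5p and miR-376c-5p differ at 1 of 22 aligned bases, and miR-379-3p and miR-411-3p differ at 2 of 22. Levels within these near-identical pairs are therefore uncertain, since the way reads that fit both were counted is not given in the sources used here.

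Further sequences belong to members that lead in level or that set tissues and neuron types apart below, together with miR-381-3p, which is not a member but differs from miR-300-3p at only 3 of 22 bases.
miR-300-3p: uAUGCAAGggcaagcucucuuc
miR-381-3p: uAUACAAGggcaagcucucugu
miR-495-3p: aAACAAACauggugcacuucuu
miR-543-3p: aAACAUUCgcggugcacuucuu
miR-666-5p: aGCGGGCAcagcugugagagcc
miR-667-3p: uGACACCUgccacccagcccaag
miR-323-3p: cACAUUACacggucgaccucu
miR-380-3p: uAUGUAGUaugguccacaucuu
miR-411-5p: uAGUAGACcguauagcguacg
miR-329-3p: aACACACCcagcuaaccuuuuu
miR-329-5p: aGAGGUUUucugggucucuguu
miR-376b-3p: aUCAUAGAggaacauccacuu
miR-329-3p shares its seed with 1 other listed miRNA, miR-362-3p, and miR-1193-3p shares its seed with miR-370-5p.

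Levels are given as CPM, the deposited value divided by 10, which scales the reads assigned to listed miRNAs to about the same total in every library. Between 469808 and 5133920 such reads stood behind a library, and 3 reads, the limit that a count of 0 allows, corresponded to 0.585 to 6.39 CPM. These limits cover counting error only. Neuron libraries listed 215 to 312 miRNAs above 0 and the other libraries 552 to 635. Summed levels of 6 neuron miRNAs (such as miR-124-3p and miR-128-3p) ran from 33309 to 38673 CPM in SCN tissue, but from 2868 to 4011 CPM in AVP, 13166 to 17755 CPM in VIP and 10771 to 12504 CPM in CCK libraries, with miR-137-3p and miR-138-5p at 0 in both AVP libraries. In the same libraries, 5 vessel miRNAs summed to 3.30 to 176 CPM and 6 leukocyte and microglia miRNAs to 0 to 159 CPM, against 3910 to 3933 and 1894 to 2077 CPM in SCN tissue. Neuron libraries thus held less of the vessel, leukocyte and neuron lists than SCN tissue did. The 4 red-cell miRNAs found summed to 2107 to 2164 CPM in AVP, 943 to 1170 in VIP and 980 to 1015 in CCK libraries. In SCN tissue they summed to 486 to 583 CPM. However, miR-144-3p, miR-144-5p and miR-451a were at 0 in all AVP and CCK libraries. The sums there came from the remaining miRNA of the list alone. In VIP libraries miR-144-5p was at 0. In VIP libraries the 4 oligodendrocyte miRNAs found (756 to 1249 CPM) overlapped SCN tissue (1004 to 1551 CPM). So did 5 choroid plexus and ciliated cell miRNAs (7564 to 9453 against 8602 to 8865 CPM). In AVP and CCK libraries both lists were lower. Of the oligodendrocyte list, miR-219-5p and miR-219-2-3p were at 0 in all AVP, VIP and CCK libraries. The oligodendrocyte sums in neuron libraries thus came from the other miRNAs of that list.

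Together the members made up 0.432% (VIP replicate 2) to 1.22% (AVP replicate 2) of the reads of a library. The summed level was 5341 ± 243 CPM in SCN, 7021 ± 386 in hypothalamus and 4912 ± 217 in cortex (SD, n = 2 each). It was 5739 ± 623 CPM over the time course (n = 11), 10397 ± 2571 in AVP neurons, 7735 ± 465 in CCK neurons and 6213 ± 2671 in VIP neurons, 6869 ± 780 in CT18 CTRL and 7239 ± 315 in CT18 LP (SD, n = 2 each). Each hypothalamus library lay above each SCN and cortex library, whereas the VIP libraries, at 8102 and 4325 CPM, enclosed the range of the CCK libraries. After median-ratio scaling the sum in hypothalamus was 1.10 times that in SCN, instead of 1.31 times, and the sum in CCK was 0.720 times that in VIP neurons, instead of 1.24 times.

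A few members carried most of this signal. Weighting tissue, time course, neurons and CT18 equally, the mean level was 1423 CPM for miR-300-3p, 781 for miR-495-3p, 723 for miR-411-3p, 647 for miR-666-5p and 481 for miR-543-3p, and these 5 members held 60.8% of the summed level. The next 10 were miR-379-5p (352 CPM), miR-380-3p (350), miR-411-5p (325), miR-323-3p (274), miR-329-3p (260), miR-667-3p (204), miR-376b-5p (175), miR-1193-3p (157), miR-379-3p (130) and miR-329-5p (101). Only 10 members were above 0 in all 27 libraries, and 20 had a mean of at least 10 CPM. At the other end, 8 members stayed under 10 CPM in every library: both arms of miR-299b, miR-494-5p, miR-679-5p, miR-666-3p, miR-495-5p, miR-376c-5p and miR-654-3p. No member was at 0 throughout. The level of miR-300-3p stands beside that of the near-identical miR-381-3p, which had group means of 613 (time course) to 4903 CPM (CCK neurons).

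**Figure D1:**
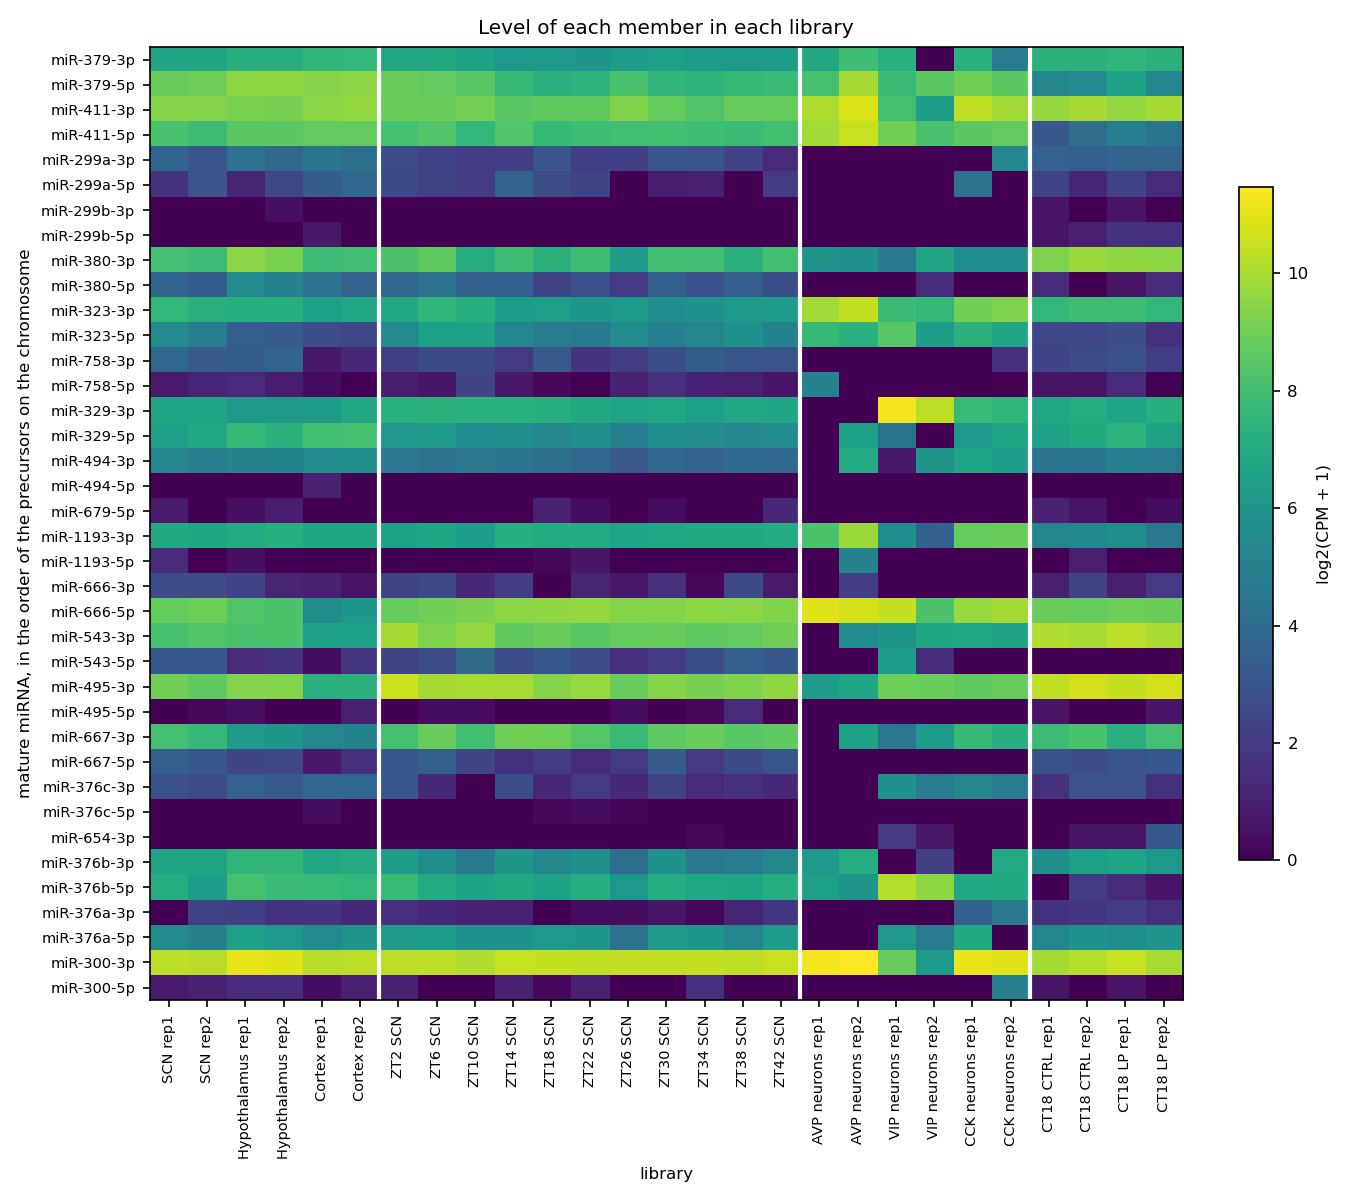
Level of the 38 members (rows, in chromosome order) in the 27 libraries (columns), as log2(CPM + 1), with white lines between tissue, time course, neurons and CT18. miR-300-3p is bright in all tissue libraries, many members are at 0 in the neuron libraries, and the 5p arms of miR-411 and miR-376b are dark at CT18.

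The tissue comparison asked how the miRNA profile of the SCN differs from that of the hypothalamus around it and from cortex. Members split rather than moving as a block. miR-666-5p, miR-667-3p and miR-323-5p were highest in SCN, miR-380-3p and miR-300-3p were highest in hypothalamus, and miR-495-3p and miR-543-3p were low in cortex. The 5p arm of miR-329 and both arms of miR-379 were lower in SCN than in either other tissue, narrowly so for miR-379-3p against hypothalamus. Tests used limma on log2(value + 1) over the 378 miRNAs with at least 10 CPM in at least 2 of the 6 libraries, with Benjamini-Hochberg adjustment and a threshold of 0.05. Of the 38 members, 23 passed that minimum.

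miR-666-5p measured 429.5 and 496.5 CPM in SCN, 330.9 and 294.7 CPM in hypothalamus, and 49.1 and 67.3 CPM in cortex. The 3 tissues did not overlap, with SCN on top and cortex far below. Its log2 difference was 3.0 ± 0.18 (SE) between SCN and cortex (limma adjusted p = 4.3e-07), 2.44 ± 0.18 between hypothalamus and cortex (limma adjusted p = 5.5e-06) and 0.56 ± 0.18 between SCN and hypothalamus (limma adjusted p = 0.019). The last of these missed the threshold without SCN replicate 2, without hypothalamus replicate 2 and with no filter, where the highest adjusted p was 0.087.

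miR-667-3p measured 269.1 and 206.5 CPM in SCN, 70.1 and 63.1 CPM in hypothalamus, and 38 and 35.4 CPM in cortex. The order of the tissues was the same as for miR-666-5p, and again no libraries overlapped. Hypothalamus exceeded cortex by log2 0.86 ± 0.18 (limma adjusted p = 0.0030), a call lost with quantile normalization and with median-ratio scaling. SCN exceeded hypothalamus 3.57-fold (log2 1.82 ± 0.18, limma adjusted p = 2.2e-05) and cortex 6.48-fold (log2 2.68 ± 0.18, limma adjusted p = 8.7e-07). miR-323-5p, a minor arm, followed the same order, with 43.2 and 27.3 CPM in SCN, 10 and 8.5 CPM in hypothalamus, and 5.5 and 4.6 CPM in cortex. Its log2 difference was 1.89 ± 0.38 against hypothalamus (limma adjusted p = 0.0018) and 2.75 ± 0.38 against cortex (limma adjusted p = 0.00012). Outside SCN, only hypothalamus replicate 1 reached the minimum of 10 CPM. miR-323-5p would thus not have been tested without the SCN libraries, the group called higher. These p-values therefore add little to the levels, although both calls are among the counts below.

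miR-380-3p peaked in hypothalamus, with 710.9 and 577.8 CPM, against 266 and 233.8 CPM in SCN and 229.1 and 249.2 CPM in cortex. SCN and cortex overlapped, and hypothalamus stood above both. The hypothalamus level was 2.58-fold that of SCN (SCN minus hypothalamus log2 -1.36 ± 0.15, limma adjusted p = 4.2e-05) and 2.69-fold that of cortex (limma adjusted p = 4.2e-05). Its partner arm miR-380-5p was likewise higher in hypothalamus than in SCN, at 37.7 ± 6.79 against 10.6 ± 1.98 CPM (SD, n = 2; limma adjusted p = 0.0012).

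The leading member, miR-300-3p, measured 2176.7 and 1900.8 CPM in hypothalamus, 1298 and 1212.1 CPM in SCN, and 1194.5 and 1233.7 CPM in cortex. Hypothalamus stood apart, while SCN and cortex overlapped. The difference between SCN and hypothalamus was log2 -0.70 ± 0.11 (limma adjusted p = 0.00046), and that between SCN and cortex was 0.05 ± 0.11 (limma adjusted p = 0.71). Hypothalamus exceeded cortex by log2 0.74 ± 0.11 (limma adjusted p = 0.00040), a call lost with quantile normalization (limma adjusted p = 0.077).

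miR-495-3p and miR-543-3p, neighbours on the chromosome, were both low in cortex. miR-495-3p measured 530.2 and 410.0 CPM in SCN, 639.5 and 648.6 CPM in hypothalamus, and 156.2 and 160.3 CPM in cortex. miR-543-3p measured 280.2 and 324.3 CPM in SCN, 285.3 and 299.3 CPM in hypothalamus, and 93.5 and 91.9 CPM in cortex. Cortex lay below both other tissues without overlap for either miRNA. SCN exceeded cortex by log2 1.56 ± 0.15 for miR-495-3p (limma adjusted p = 8.4e-06) and by 1.70 ± 0.14 for miR-543-3p (limma adjusted p = 3.3e-06). Between SCN and hypothalamus miR-543-3p differed by log2 0.04 ± 0.14 (limma adjusted p = 0.80).

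Other members were lower in SCN. miR-329-5p measured 88.6 and 112.4 CPM in SCN, 206.4 and 163.6 CPM in hypothalamus, and 256.1 and 268.7 CPM in cortex. SCN was lowest and cortex highest, without overlap, with SCN lower than cortex by log2 -1.39 ± 0.17 (limma adjusted p = 5.8e-05). Its other arm, miR-329-3p, was higher in SCN (106 ± 1.48 CPM) than in hypothalamus (72.0 ± 0.778 CPM; SD, n = 2; limma adjusted p = 0.028), a call that was lost when any 1 of the 4 libraries compared was left out, and it overlapped between SCN and cortex.

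miR-379-5p measured 446.4 and 486.7 CPM in SCN, 738.1 and 750.5 CPM in hypothalamus, and 653 and 713.2 CPM in cortex. SCN was below both other tissues, by log2 -0.68 ± 0.12 (limma adjusted p = 0.00076) and -0.55 ± 0.12 (limma adjusted p = 0.0020). miR-411-5p was likewise lowest in SCN, but with cortex above hypothalamus, at means of 262 ± 44.8, 381 ± 2.83 and 425 ± 0.0707 CPM (SD, n = 2 each). Its difference from hypothalamus, log2 -0.55 ± 0.15 (limma adjusted p = 0.0075), missed the threshold under both other scalings. miR-411-3p, in contrast, measured 639.4 CPM in both SCN libraries, and neither its difference from hypothalamus (log2 0.18 ± 0.12, limma adjusted p = 0.19) nor that from cortex (-0.21 ± 0.12, limma adjusted p = 0.12) passed. miR-379-3p had means of 110 ± 2.19 CPM in SCN, 141 ± 1.84 in hypothalamus and 191 ± 6.58 in cortex (SD, n = 2 each). Its difference from hypothalamus was log2 -0.36 ± 0.14 (limma adjusted p = 0.039). That call was lost under both other scalings, with the replicate block and when any 1 tissue library was left out.

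By counts, SCN against hypothalamus called 15 of the 23 members, 4 higher and 11 lower, where 70.9% of all tested miRNAs were called, 28.0% higher and 42.9% lower. The 4 higher were miR-667-3p, miR-323-5p, miR-666-5p and miR-329-3p. The 11 lower were both arms of miR-380, miR-376b and miR-379, with miR-300-3p, miR-329-5p, miR-376a-5p, miR-411-5p and miR-495-3p. The call for miR-495-3p (limma adjusted p = 0.019) was lost under both other scalings and without SCN replicate 2 or either hypothalamus library, with an adjusted p of up to 0.27. The members' median log2 difference was -0.47, beside -0.29 for all 378 miRNAs. With median-ratio scaling the median of all miRNAs moved to -0.03, and the split of the members to 6 higher and 8 lower.

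SCN against cortex called 15 of 23 members, 7 higher and 8 lower, where 80.2% of all tested miRNAs were called, 41.3% higher and 38.9% lower. The higher ones were miR-666-5p, miR-667-3p, miR-543-3p, miR-495-3p, miR-323-5p, miR-323-3p and miR-758-3p. The low-level miR-758-3p measured 11.4 ± 3.46 CPM in SCN and 1.10 ± 0.566 in cortex (SD, n = 2). It reached the minimum for testing only through SCN replicate 1 and hypothalamus replicate 2, of the tissues called higher than cortex. Similarly, miR-376c-3p, called lower, reached it only through both cortex libraries and hypothalamus replicate 1. For both miRNAs the p-value against cortex adds little to the levels. The lower ones were miR-329-5p, both arms of miR-379, miR-411-5p, miR-376b-5p, miR-376c-3p, miR-494-3p and miR-299a-3p. The last 3 had adjusted p-values of 0.020, 0.025 and 0.040 (limma) and each missed the threshold without SCN replicate 2 and without either cortex library.

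Hypothalamus against cortex called 13 of 23 members, 10 higher and 3 lower, where 58.2% of all tested miRNAs were called, 41.8% higher and 16.4% lower. The 10 higher members included miR-495-3p (log2 2.02 ± 0.15), miR-666-5p (2.44 ± 0.18), miR-543-3p (1.66 ± 0.14) and miR-380-3p (1.42 ± 0.15), with limma adjusted p-values from 5.5e-06 to 4.2e-05. The 3 lower were miR-411-3p, miR-379-3p and miR-329-5p, and without hypothalamus replicate 2, or without cortex replicate 2, 0 members were called lower. miR-411-3p and miR-379-3p were also lost without hypothalamus replicate 1, miR-379-3p and miR-329-5p without cortex replicate 1, and miR-329-5p with no filter. Here the scaling set the split: the members' median of 0.51 and the median of all miRNAs of 0.41 became 0.09 and -0.01 with median-ratio scaling, and the split became 6 higher and 6 lower. The same scaling moved all miRNAs from 158 higher and 62 lower to 96 higher and 104 lower.

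**Figure D2:**
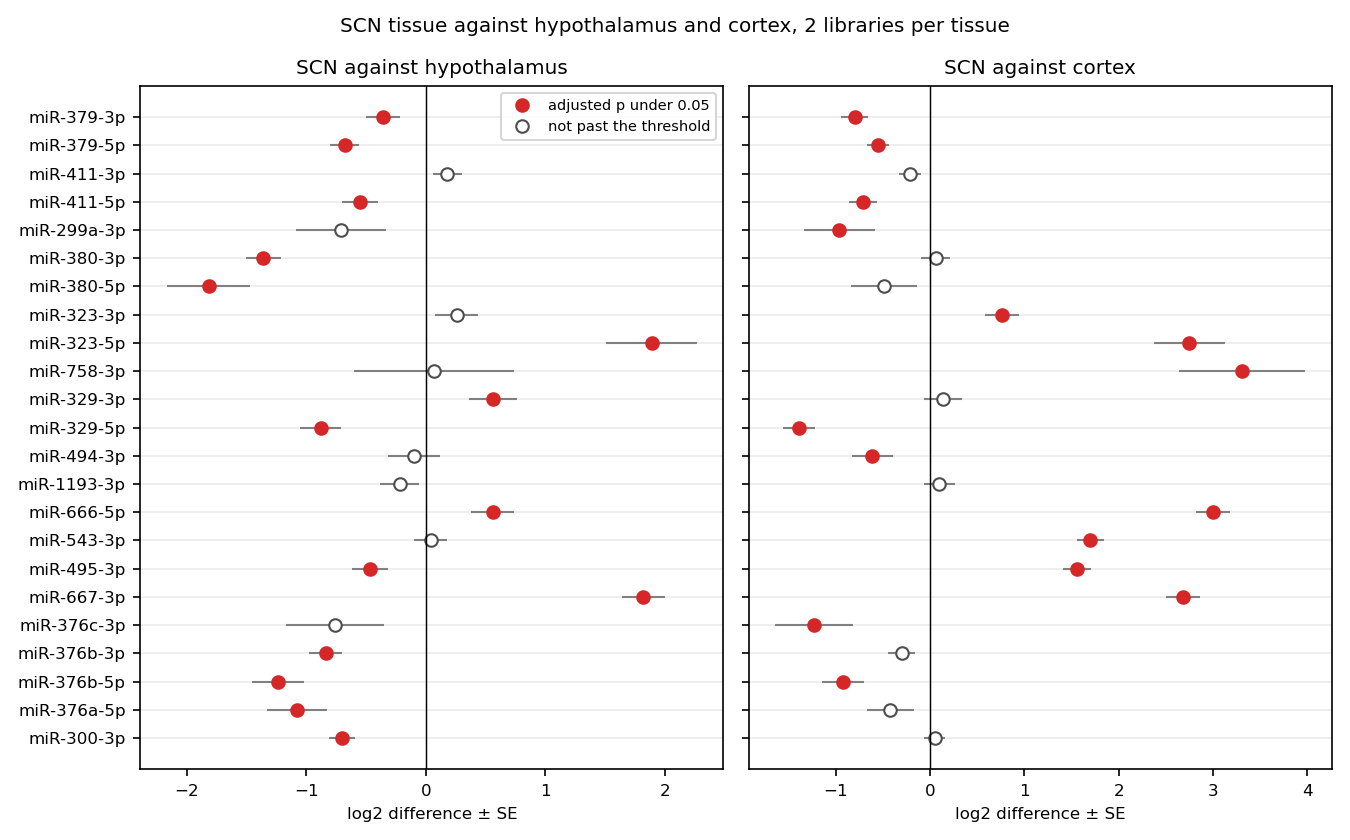
Log2 differences (points) with their standard errors (bars) for the 23 tested members, in chromosome order, for SCN against hypothalamus (left) and SCN against cortex (right), 2 libraries per tissue. miR-323-5p and miR-667-3p lie right of 0 in both panels, miR-379 and miR-329-5p lie left of 0 in both, and miR-666-5p reaches 3.0 against cortex.

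The other miRNAs of the region, taken from fixed lists by precursor, gave a frame for these counts. Among 22 tested miRNAs of the rest of the cluster, SCN against hypothalamus called 6 higher and 8 lower, SCN against cortex 9 and 7, and hypothalamus against cortex 10 and 2. Among 22 tested miRNAs upstream of it the counts were 8 and 6, 12 and 5, and 13 and 0. By smallest p, SCN exceeded cortex in the upstream miR-770-3p (log2 4.95 ± 0.18, limma adjusted p = 2.7e-08) and miR-433-3p (2.88 ± 0.12, limma adjusted p = 4e-08) and in miR-668-3p of the rest of the cluster (2.58 ± 0.15, limma adjusted p = 3.6e-07). SCN lay below hypothalamus in miR-369-3p (log2 -1.71 ± 0.14, limma adjusted p = 7.3e-06).

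Marker lists also differed between the tissues. The 6 neuron miRNAs summed to 150725 to 157649 CPM in cortex and 49299 to 51550 CPM in hypothalamus, the 4 oligodendrocyte miRNAs found to 1004 to 1551 CPM in SCN and 3566 to 4185 CPM in hypothalamus, and the 5 vessel miRNAs to 11100 to 11818 CPM in hypothalamus. Their part in the differences of the members was not tested. In bulk tissue, fewer cells of a type and less RNA per cell cannot be told apart.

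The neuron libraries addressed whether SCN neuron types carry different miRNAs. miR-329-3p was listed at 0 in AVP neurons, was the most abundant member in VIP neurons, and lay between in CCK neurons. miR-376b-5p was also high in VIP neurons, whereas miR-300-3p, miR-411-3p, miR-1193-3p and miR-323-3p were high in AVP and CCK neurons and low in VIP neurons. miR-495-3p was low in AVP neurons. In these fits, 21 members of 305 miRNAs were tested.

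miR-329-3p was at 0 in both AVP libraries, 2467.8 and 1282.7 CPM in VIP and 208.8 and 178.7 CPM in CCK neurons. The 3 types did not overlap. Against a limit of 3 reads over both AVP libraries, the VIP level was at least 904-fold higher and the CCK level at least 93.4-fold higher (limma adjusted p = 0.0014 and 0.0052). VIP exceeded CCK 9.68-fold (limma adjusted p = 0.046), a call that was lost with the replicate block, with a stricter filter and without any 1 of the 4 libraries. The other arm did not follow: miR-329-5p was 0 and 89.3 CPM in AVP, 21.3 and 0 CPM in VIP and 68.1 and 104.7 CPM in CCK neurons.

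miR-376b-5p measured 89.5 and 60.6 CPM in AVP, 1170.1 and 728.8 CPM in VIP and 115 and 125.3 CPM in CCK neurons. VIP stood above both other types, by 12.7-fold over AVP (log2 -3.65 ± 0.44 for AVP minus VIP, limma adjusted p = 0.0069) and 7.90-fold over CCK (2.94 ± 0.44, limma adjusted p = 0.014). The 3p arm of the same hairpin, miR-376b-3p, measured 72.7 and 136.7 CPM in AVP but 0 and 3.5 CPM in VIP neurons, and its difference did not pass (limma adjusted p = 0.23).

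miR-300-3p measured 2445.7 and 2842.5 CPM in AVP, 441.8 and 73.2 CPM in VIP and 2273.5 and 2019.2 CPM in CCK neurons. The VIP libraries were lowest and also far apart from each other. The level was 10.3-fold higher in AVP than in VIP (log2 3.87 ± 0.88, limma adjusted p = 0.030) and 8.34-fold higher in CCK than in VIP (limma adjusted p = 0.043). Both calls were lost without AVP replicate 1, AVP replicate 2, CCK replicate 1 or CCK replicate 2, and the call for CCK also with median-ratio scaling, no filter or the replicate block.

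miR-411-3p had 1059.6 and 1848.7 CPM in AVP, 260.2 and 83.3 CPM in VIP and 1310.4 and 928.4 CPM in CCK neurons. AVP exceeded VIP 8.47-fold (limma adjusted p = 0.022), a call lost without AVP replicate 2. CCK also exceeded VIP (VIP minus CCK log2 -2.90, limma adjusted p = 0.039). That call was lost with median-ratio scaling, with the replicate block and without VIP replicate 2 or either CCK library. miR-1193-3p had 300.3 and 862.5 CPM in AVP, 48 and 10.7 CPM in VIP and 432.5 and 453.9 CPM in CCK neurons, again with VIP below both. AVP exceeded VIP 19.8-fold (limma adjusted p = 0.024), and CCK exceeded VIP 15.1-fold (limma adjusted p = 0.036). The call for AVP was lost with the replicate block and without AVP replicate 2, VIP replicate 2 or CCK replicate 2. The call for CCK was lost with both other scalings, with the replicate block and without VIP replicate 2 or either CCK library.

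miR-323-3p, the only 1 of the 5 members higher in AVP than in VIP whose call held in every alternative, measured 951.4 and 1356.7 CPM in AVP, 227.1 and 198.2 CPM in VIP and 522 and 616.2 CPM in CCK neurons. AVP was highest and VIP lowest, without overlap. AVP exceeded VIP 5.43-fold (log2 2.42 ± 0.30, limma adjusted p = 0.0071), with an adjusted p of at most 0.029 over 12 alternatives. Between AVP and CCK the difference was log2 1.0 ± 0.30 (limma adjusted p = 0.10). Between VIP and CCK it was log2 -1.42 (limma adjusted p = 0.032), a call lost with both other scalings, with the replicate block and without any 1 VIP or CCK library.

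miR-495-3p was lowest in AVP neurons, at 78.3 and 110.3 CPM, against 492.3 and 462.2 CPM in VIP neurons and 409.1 and 449.8 CPM in CCK neurons. AVP lay below both, by log2 -2.36 ± 0.33 against VIP (limma adjusted p = 0.0086) and -2.21 ± 0.33 against CCK (limma adjusted p = 0.014). Its neighbour miR-543-3p was 0 and 47.4 CPM in AVP and 66.5 to 112.9 CPM in the other types, a difference that did not pass against VIP (limma adjusted p = 0.25) or CCK (limma adjusted p = 0.32).

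Members of the miR-376 family were at 0 in several libraries. miR-376c-3p was at 0 in both AVP libraries, 52.6 and 25.8 CPM in VIP and 36.2 and 26.7 CPM in CCK neurons, at least 18.9-fold and 15.2-fold above the AVP limit (limma adjusted p = 0.0086 and 0.014). miR-376a-3p was at 0 in all AVP and VIP libraries and 10.6 and 22.5 CPM in CCK neurons, at least 7.98-fold above AVP and 30.9-fold above VIP (limma adjusted p = 0.0068 and 0.0053), on 16 reads in all. It reached the minimum for testing only through the CCK libraries, the group called higher. These p-values therefore add nothing to the levels, although both calls are among the counts below. Fitted log2 differences of members at 0 depend on the added constant and are not given.

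By counts, AVP against VIP called 9 of 21 members, 5 higher (the 4 above and miR-411-5p) and 4 lower, where 32.8% of all tested miRNAs were called, 18% higher and 14.8% lower. miR-411-5p passed narrowly (limma adjusted p = 0.040) and was lost in 8 of its 12 alternatives. AVP against CCK called 0 higher and 4 lower, where 16.7% of all tested miRNAs were called, 2.62% higher and 14.1% lower, and with median-ratio scaling the split became 2 higher and 4 lower. VIP against CCK called 2 higher and 5 lower, where 29.8% of all tested miRNAs were called, 8.20% higher and 21.6% lower, and with median-ratio scaling 2 higher and 1 lower. Without CCK replicate 1, or without CCK replicate 2, both comparisons with CCK called 0 members, and without AVP replicate 1 the calls of miR-495-3p, miR-376c-3p and miR-376a-3p in AVP against CCK were lost. Unadjusted p-values under 0.05 were reached by 6 members in AVP against CCK, where 28.9% of all tested miRNAs reached it, and by 7 in VIP against CCK, where 39.3% did, with all libraries.

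The members' median log2 difference was 0.19 for AVP against VIP, 0.20 for AVP against CCK and -0.61 for VIP against CCK, beside 0.26, -0.45 and -0.93 for all 305 miRNAs. In the rest of the cluster, 22 miRNAs were tested: AVP against VIP called 8 higher and 1 lower, AVP against CCK 0, with 5 at an unadjusted p under 0.05, and VIP against CCK 2 higher and 6 lower. The strongest was miR-409-5p, higher in AVP than in VIP by log2 5.61 ± 0.16 (limma adjusted p = 0.00032). miR-204-5p and 4 other choroid plexus and ciliated cell miRNAs summed to 7564 to 9453 CPM in VIP, 83.8 to 290 CPM in AVP and 1500 to 1914 CPM in CCK libraries, with miR-34b-5p and miR-449a-5p at 0 in all 6, and their part in these differences was not tested.

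**Figure D3:**
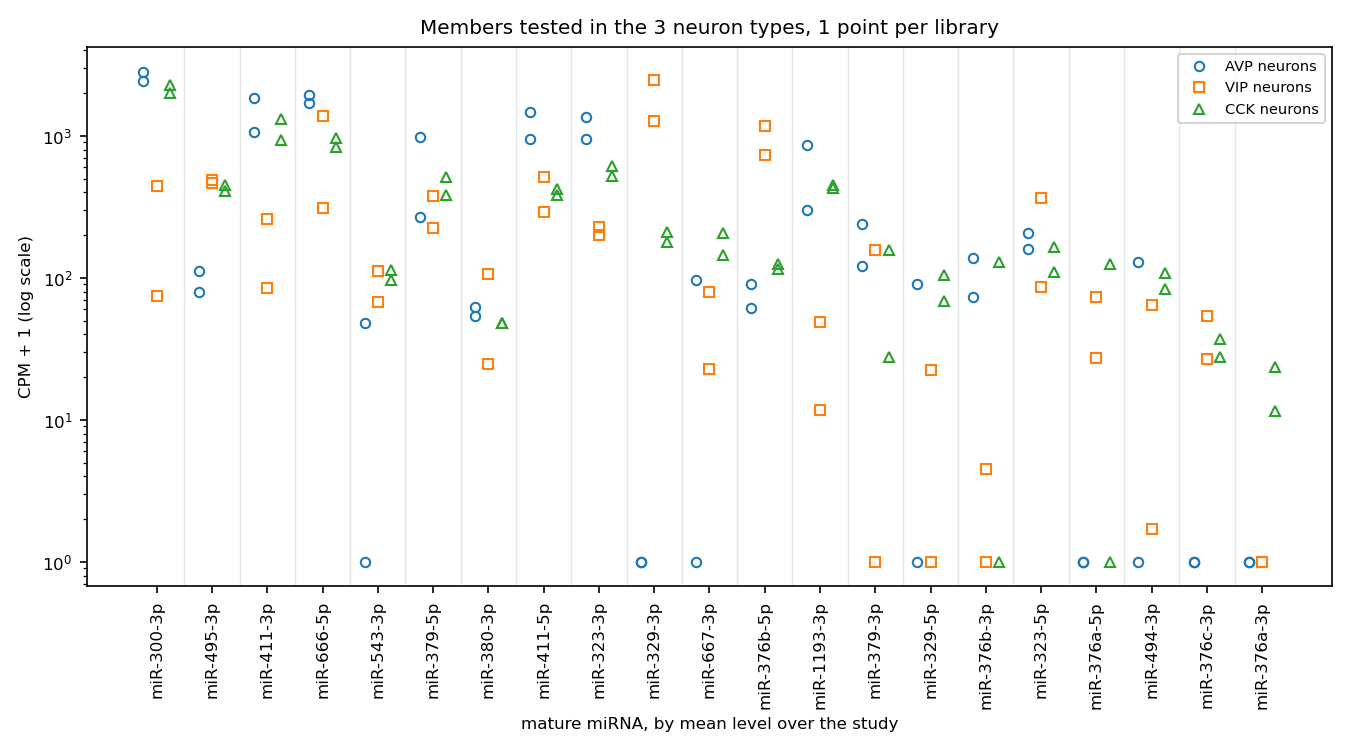
Level of the 21 tested members (horizontal, by mean level over the study) as CPM + 1 on a log scale, 1 symbol per library of AVP (circles), VIP (squares) and CCK neurons (triangles). miR-329-3p sits at the floor in AVP neurons and on top in VIP neurons, while miR-300-3p, miR-411-3p and miR-1193-3p are lowest in VIP neurons.

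Arms of the same hairpin did not keep 1 ratio across the study. The share of the 5p arm was computed from libraries with at least 20 reads over both arms, a minimum chosen after the values were seen, and 18 precursors have both arms listed. Leading arms were judged by group mean, over groups in which every library reached that minimum. In 11 precursors the 3p arm led in all such groups, and in 2 (miR-666 and miR-376a) the 5p arm did. In 4 (miR-379, miR-411, miR-329 and miR-376b) the leading arm differed between groups. For miR-758 only SCN and hypothalamus were left, and for miR-376c only cortex and VIP neurons. Single libraries could depart from the group mean: the 5p share was 61.5% for miR-323 and 55.5% for miR-543 in VIP replicate 1, and 78.6% for miR-299a at ZT14.

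At CT18 the 5p arms of 3 of these hairpins were low. For miR-379 the 5p share was 80.9 ± 0.635% in SCN tissue (SD, n = 2) and 67.9 to 80.9% over the time course (median 74.7%), but 18.3 and 21.5% in CT18 CTRL and 35.1 and 18.6% in CT18 LP. For miR-411 it was 28.9 ± 3.53% in SCN tissue (SD, n = 2) and 26 to 46.4% over the time course (median 36.7%), but 0.945 to 3.56% in the 4 CT18 libraries. For miR-376b it was 51.2 ± 8.22% in SCN tissue (SD, n = 2) and 66.0 to 83.6% over the time course (median 74.4%), but 0 to 3.44% at CT18. The CT18 libraries lay below every other SCN tissue library in all 3 hairpins.

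In CPM, miR-376b-5p measured 0, 3.1, 1.6 and 0.6 in the 4 CT18 libraries and 84.5 to 136.7 in SCN tissue, while miR-376b-3p measured 50.6 to 108.7 and 101.5 to 102.9. miR-411-5p measured 7.8 to 28.8 at CT18 and 229.9 to 293.2 in SCN tissue, while miR-411-3p measured 781.1 to 963.5 at CT18 and 639.4 in SCN tissue. In both hairpins the low values at CT18 were those of the 5p arm.

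A smaller gap without overlap was seen for miR-323, whose 5p share was 15 and 18.2% in SCN tissue and 23.1 to 42.8% over the time course, but 1.01 to 2.30% in the 4 CT18 libraries, with miR-323-5p itself at 43.2 and 27.3 CPM in SCN tissue and 2.0 to 5.6 CPM at CT18. Minor 5p arms of 2 more hairpins were lower at CT18 too: the 5p share of miR-380 was 4.05% in SCN and 0.131% in CT18 CTRL, and that of miR-543 was 2.59 and 0%, with miR-543-5p at 0 in all 4 CT18 libraries. Other shares were closer: that of miR-329 was 48.4% in SCN and 46.4% in CT18 CTRL, that of miR-376a 94.8 and 95.1%, and that of miR-666 98.9 and 99.5%. Among 13 member precursors with a summed level of at least 20 CPM in both groups, 3 were lower in CT18 CTRL than in SCN by over 20 percentage points and 0 were higher. Among 146 other precursors 6 were lower and 6 higher. These cutoffs too were chosen after the values were seen, and no test was made, because the CT18 and SCN tissue libraries belong to separate parts of the study. Time, treatment and any difference in library making cannot be told apart between them.

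Levels of abundant 3p arms at CT18 lay on either side of those in the time course. Over the 4 CT18 libraries miR-495-3p had a mean of 1538 CPM against 826 over the time course, miR-543-3p 1096 against 526, and miR-380-3p 741 against 227. Lower means at CT18 were found for miR-1193-3p (37.2 against 118 CPM), miR-667-3p (233 against 378) and miR-300-3p (1155 against 1353).

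Neuron types differed in arm shares as well. In VIP neurons the 5p share was 100 and 99.5% for miR-376b, 66.5 and 77.8% for miR-411, and 0.856 and 0% for miR-329. The corresponding shares were 55.2 and 30.7%, and 47.5 and 44.2%, for miR-376b and miR-411 in AVP neurons. In CCK neurons they were 100 and 49.2%, 22.7 and 31.3%, and, for miR-329, 24.6 and 36.9%. The miR-411 share was above 50% in VIP neurons and below 50% in every other library. In tissue, the 5p share of miR-329 was 45.2 and 51.7% in SCN, 69.3 to 74.3% in hypothalamus and 69.8 to 76.3% in cortex, so SCN lay below both.

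**Figure D4:**
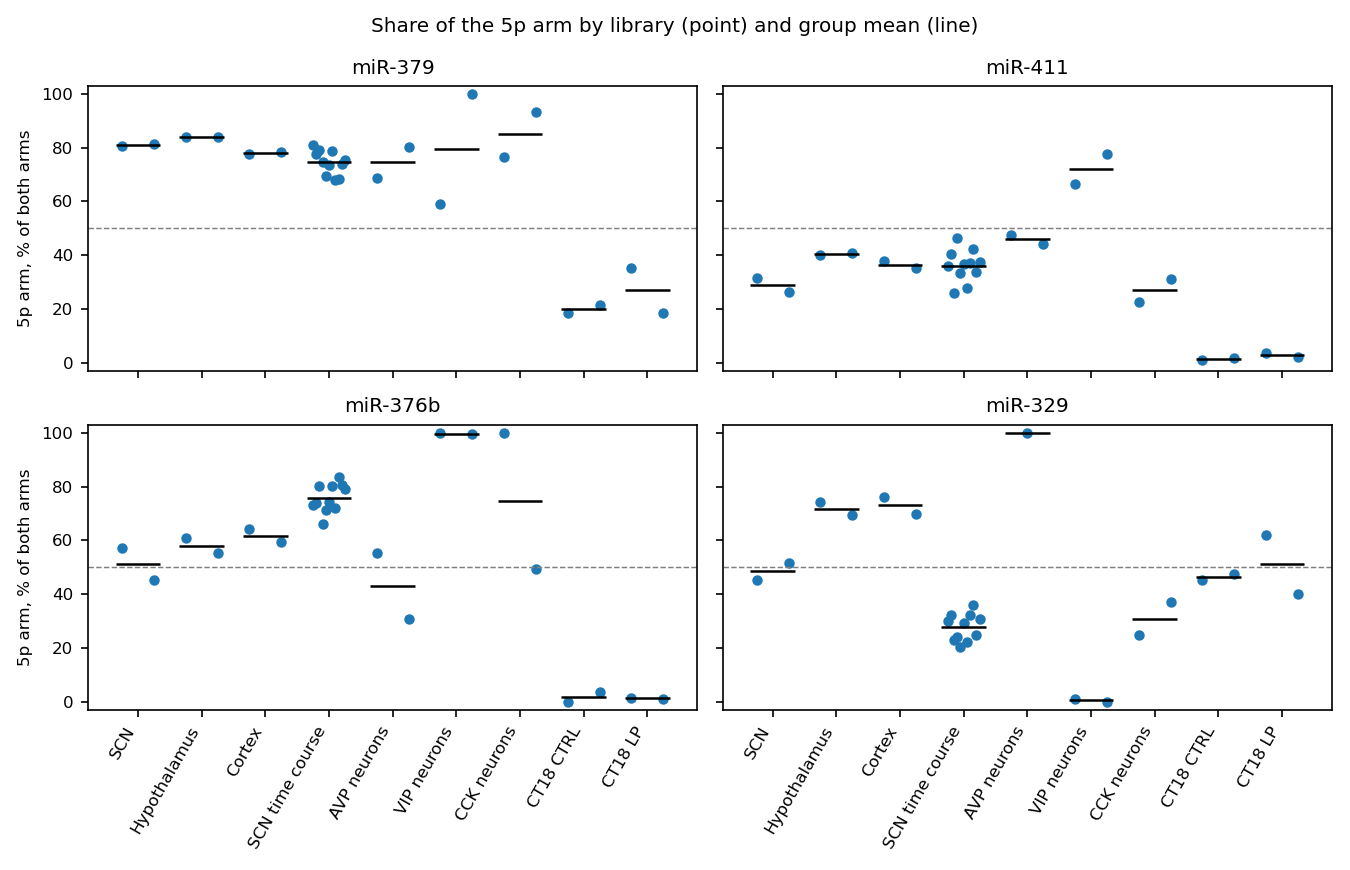
Share of the 5p arm (percent of both arms, vertical) for miR-379, miR-411, miR-376b and miR-329, 1 point per library with at least 20 reads and a line at the group mean (AVP neurons had 1 such library for miR-329). At CT18 the share is 0 to 35.1% for miR-379, miR-411 and miR-376b, and VIP neurons reach 99.5 and 100% for miR-376b and at most 0.856% for miR-329.

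The CT18 libraries addressed the light response. No member passed the test between LP and CTRL: of 18 tested, limma called 0, and 0 had an unadjusted p under 0.05, where 0% of the 317 miRNAs tested were called and 1 (0.315%) had an unadjusted p under 0.05. The members' median log2 difference was 0.12, beside 0.07 for all. The smallest p belonged to miR-411-5p, with 28.8 and 20.7 CPM in LP and 7.8 and 16 CPM in CTRL. These libraries did not overlap (log2 1.12 ± 0.49, limma adjusted p = 0.99). miR-379-5p measured 101.3 and 38.1 CPM in LP and 36.6 and 45.5 CPM in CTRL, with LP replicate 1 alone high. Its log2 difference of 0.61 ± 0.48 (limma adjusted p = 0.99) passed the threshold without LP replicate 2 (adjusted p = 0.010) and changed sign without LP replicate 1. miR-494-3p measured 30 and 24.5 CPM in LP and 19.7 and 21.2 CPM in CTRL (log2 0.41 ± 0.33, limma adjusted p = 0.99). Among abundant members, miR-495-3p had 1560 ± 181 CPM in LP and 1517 ± 262 in CTRL, and miR-543-3p 1146 ± 142 and 1046 ± 71.7 (SD, n = 2 each). In the rest of the cluster and among the upstream miRNAs, 0 of 22 and 0 of 19 were called, with 0 at an unadjusted p under 0.05 in either.

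The time course asked which SCN miRNAs cycle over the day. A cosine and a sine term of 24 h were fitted together over the 11 libraries. Of 20 members tested, limma called 0, and 0 had an unadjusted p under 0.05, where 0% of the 357 miRNAs tested were called and 6 (1.68%) had an unadjusted p under 0.05. The smallest p belonged to miR-323-5p, which had 43.9, 92.1 and 95.7 CPM at ZT2, ZT6 and ZT10, 36.8, 26.5 and 24.2 CPM at ZT14, ZT18 and ZT22, 45.2, 29.9 and 36.3 CPM at ZT26, ZT30 and ZT34, and 54.9 and 32.9 CPM at ZT38 and ZT42. The high values at ZT6 and ZT10 did not return at ZT30 and ZT34. Its fitted amplitude was 0.58 ± 0.23 on the log2 scale, with a fitted peak at ZT 8.40 (limma adjusted p = 0.95).

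miR-379-5p measured 472.9, 426.3 and 370.1 CPM at ZT2, ZT6 and ZT10, 203.3, 159.2 and 176.1 CPM at ZT14, ZT18 and ZT22, 289.2, 184.3 and 167.9 CPM at ZT26, ZT30 and ZT34, and 206.4 and 227.8 CPM at ZT38 and ZT42 (amplitude 0.41 ± 0.20, limma adjusted p = 0.95). Its other arm miR-379-3p had its highest level, 124 CPM, at ZT6 and its lowest, 62.7 CPM, at ZT22 (amplitude 0.30 ± 0.15, limma adjusted p = 0.95). The 3 leading members by level in the time course gave amplitudes of 0.09 ± 0.11 (miR-300-3p), 0.09 ± 0.21 (miR-495-3p) and 0.18 ± 0.14 (miR-666-5p).

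The first and the second day differed in level for several members, a comparison picked after the values were seen and given with no test. In the libraries of ZT2, ZT6 and ZT10, 8 of the 20 members were higher than in all of ZT26, ZT30 and ZT34, the same clock times a day later: both arms of miR-379, miR-380-5p, miR-323-3p, miR-329-3p, miR-494-3p, miR-543-3p and miR-495-3p. Among all 357 tested miRNAs 23.8% lay higher on the first day in this way and 4.76% lower. miR-495-3p, for instance, had 1567.9, 972.4 and 1001.7 CPM on the first day and 449.8, 679.5 and 562.4 CPM on the second. miR-543-3p had 978.5, 604.4 and 771.1 CPM and then 435.3, 442.5 and 398.8 CPM. The 2 members lower on the first day were miR-666-5p and miR-300-3p, with miR-666-5p at 443.6, 529.4 and 584.6 CPM and then 649.9, 654 and 737.9 CPM. The other 10 members overlapped. Whether the days differ in light, handling or library making is not given in the labels, and it was not tested.

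Across the 11 time points, the median of the pairwise Spearman correlations among the 20 members was 0.21, beside 0.12 among all 357 miRNAs, as a description of libraries that share depth and scaling.

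**Figure D5:**
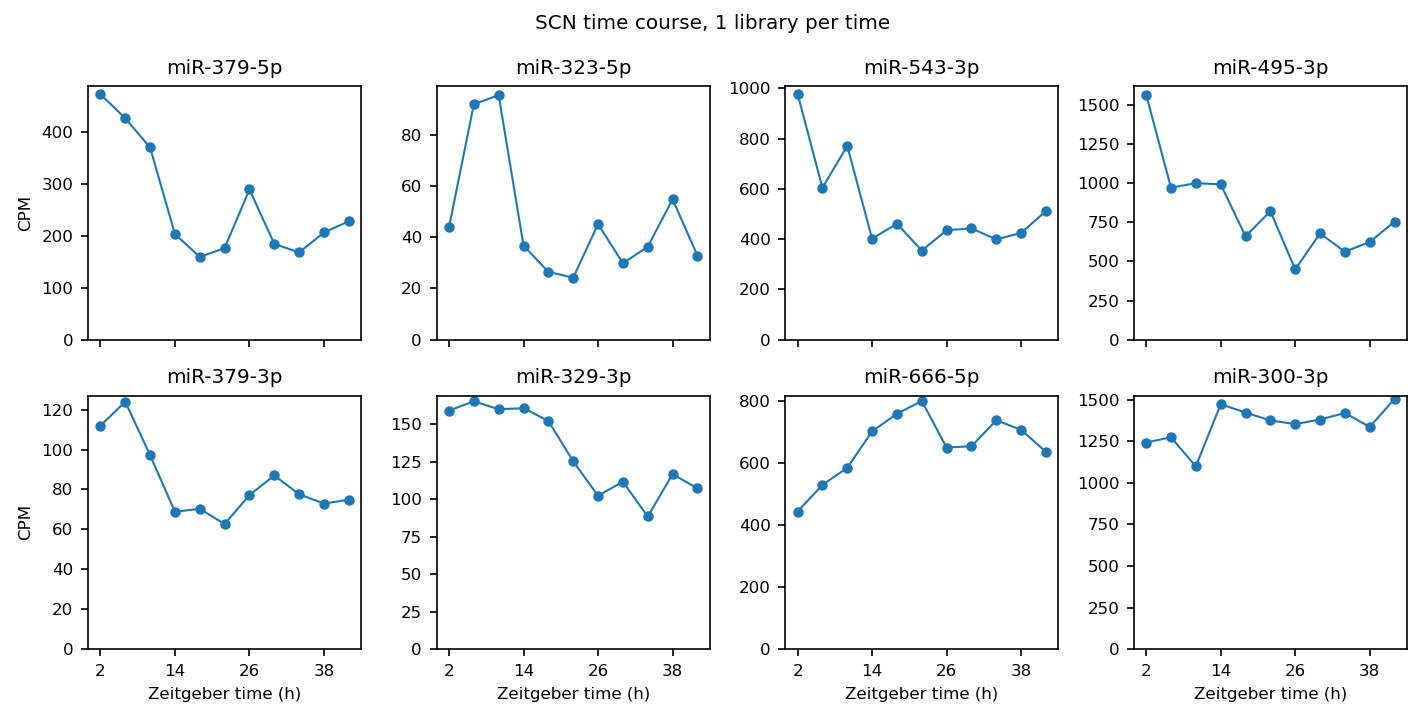
Level in CPM (vertical, from 0) against Zeitgeber time in hours for 8 members of the SCN time course, 1 library per point. miR-379-5p, miR-543-3p and miR-495-3p start high and stay lower on the second day, and miR-666-5p starts low at 443.6 CPM.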

How the data were processed

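Total RNA was extracted with Trizol and libraries followed Illumina protocols, per the labels' protocols. Bowtie, GRCm38 and mm10 are named per the submitters' processing notes, and the version and parameters are not given in the sources used here. The deposited values are a normalized signal: in every library, totals of 10004170 to 10021510 and low values that are multiples of 1 step, rounded down, point to reads scaled to about 10000000 per library. Why the totals lie slightly above 10000000 is not given in the sources used here. CPM is the deposited value divided by 10, an unlisted miRNA counting as 0. Steps gave the read totals (469808 to 5133920) and the 3-read limits, and no count model was used because the rounding keeps the reads from being recovered with certainty.

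limma 3.58.1 (R 4.3.3) was run with a trend on log2(value + 1), fitted separately in tissue, neuron, CT18 and time-course libraries, over miRNAs with a value of at least 100 in at least 2 libraries (3 in the time course). Tests were two-sided, p-values were adjusted by Benjamini-Hochberg over all tested miRNAs with a threshold of 0.05, and the procedure was tested on simulated data. Folds are ratios of mean CPM. Alternatives were another scaling, pseudocount, filter, replicate block, a straight-line term and leaving out libraries. In each comparison up to 10 members per direction were named by smallest adjusted p (the 3 smallest p where fewer than 3 passed), beside the 15 most abundant and precursors whose leading arm differed. Members and lists were chosen with earlier results of these data known.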

Additional observations from a re-analysis of the deposited data

How the results depend on the processing

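Of 801 refits of single members named in a comparison, 685 kept direction and call, 114 lost the call, 1 gained it and 1 changed direction. The change was miR-379-5p in LP against CTRL, at log2 -0.10 without LP replicate 1, and the gain was the same miRNA at log2 1.31 without LP replicate 2. The 801 include refits of members named in LP against CTRL and in the time course that no main fit called. For these, keeping the call means staying uncalled, and a fitted amplitude has no direction to change. With a pseudocount of 10, 68 of 68 were kept. Leaving out 1 library moved the count of members called from 15 to between 11 and 14 (SCN against hypothalamus), from 15 to between 12 and 15 (SCN against cortex), from 13 to between 8 and 15 (hypothalamus against cortex), from 9 to between 7 and 11 (AVP against VIP), from 4 to between 0 and 6 (AVP against CCK), from 7 to between 0 and 7 (VIP against CCK) and from 0 to between 0 and 1 (LP against CTRL). It stayed at 0 in the time course. A stricter filter left 2 members called in AVP against CCK, as miR-376a-3p and miR-376c-3p missed its minimum of 50 CPM and were not tested. Median-ratio scaling left 3 in VIP against CCK, where the cause was not tested. Over all miRNAs, leaving out CCK replicate 1 or 2 took AVP against CCK from 51 calls to 0 and VIP against CCK from 91 to 2 and 1. Without AVP replicate 1 AVP against CCK called 26, without VIP replicate 2 VIP against CCK called 52, and without LP replicate 2 LP against CTRL called 21 where all libraries called 0. Where 1 library of a group was left out, the lone library was assumed to vary like the others.

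In tissue and neurons, the deviations of same-numbered replicates correlated from -0.09 to 0.12. Between CTRL and LP at CT18 they correlated at 0.25, and the replicate block called 0 members there too. With the replicate block, 2 members were called in VIP against CCK, and over all miRNAs 46; it kept 58 of 65 named results. The planned count tests were not run, because whole reads were not recovered with certainty. Depth limits the neuron libraries most, where 3 reads reach 6.39 CPM.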

Other observations

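The rest of the miR-379/miR-410 cluster, 35 listed miRNAs from the fixed list by precursor, was the larger part of the cluster in every group. It summed to 13741 ± 2.47 CPM in SCN, 15959 ± 486 in hypothalamus and 15100 ± 513 in cortex (SD, n = 2 each). The miR-379 to miR-300 segment summed to 5341, 7021 and 4912 CPM. At CT18 the rest summed to 7254 ± 684 CPM in CTRL and 7969 ± 1143 in LP (SD, n = 2 each), close to the 6869 and 7239 CPM of the segment. In AVP neurons the rest reached 34128 ± 3099 CPM (SD, n = 2) and the segment 10397 CPM. The 31 upstream miRNAs summed to 149979 ± 17527 CPM in SCN (SD, n = 2), most of it miR-127-3p, and to 55431 ± 2885 CPM in CT18 CTRL (SD, n = 2). Without miR-127-3p these sums were 27685 ± 3643 and 39664 ± 4652 CPM (SD, n = 2 each). No test was made between CT18 and the other libraries, which belong to separate parts of the study.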
